A study of Marchantia polymorpha and Lactuca sativa with 27 samples.

Results

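Growth on medium labelled as lacking nitrate was followed in the Marchantia polymorpha line labelled Mpwrky10, a liverwort mutant named for the WRKY transcription factor gene MpWRKY10. The members are its 3 libraries from medium labelled as holding 0 mM nitrate and its 3 libraries from full medium, which held 10 mM nitrate and 2 mM phosphate, chosen by their labels from the 27 libraries of the series, 18 of which are Marchantia. Whole gemmalings, plantlets that grow out of the asexual gemmae, were sampled 5 days after transfer to each medium at an age of 7 days. The other Marchantia groups used here are 3 wrky10 libraries labelled 0 mM phosphate, 3 libraries labelled no nitrate of the wild type Tak-1, a male laboratory strain, and 3 Tak-1 libraries in full medium. The 3 Tak-1 libraries labelled 0 mM phosphate entered only the filter on low counts, the scaling, the shared estimate of the spread and the principal components. Lettuce libraries were not used here. The labels do not give the kind of mutation, the number of independent lines or whether replicates were grown apart. The p-values below therefore speak for the spread among the 18 Marchantia libraries only, and that spread may be technical.

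Plants short of nitrate or phosphate switch on importers for the missing ion. Short of phosphate, they also replace membrane phospholipids with lipids that hold no phosphorus. WRKY proteins are plant transcription factors that bind the W-box in promoters and are best known from immunity. Liverworts lack the red anthocyanins of flowering plants and make red auronidin pigments and bibenzyls from phenylalanine, through phenylalanine ammonia-lyase (PAL), cinnamate 4-hydroxylase (C4H) and enzymes of the chalcone synthase family.

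MpWRKY10 itself (Mp7g06550, chromosome 7) was read in every library. It stood at 37.6, 35.2 and 34.4 CPM (counts scaled to a library of 1e+06) in the mutant labelled no nitrate, against 14.9, 19.6 and 21.6 CPM in mutant plants on full medium. The groups did not overlap (log2 0.93, SE 0.12, adjusted p = 7.49e-06; edgeR quasi-likelihood test with Benjamini-Hochberg adjustment over all genes tested, the source of every adjusted p of a gene below). In Tak-1 it had 21.7, 22.0 and 26.9 CPM labelled no nitrate and 17.247, 22.4 and 19.0 CPM in full medium (log2 0.26, adjusted p = 0.0963), and in the mutant labelled no phosphate 25.5, 27.2 and 28.9 CPM. A mutated gene can still be transcribed, so the genotype label is not tested by these levels.

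The 6 libraries held 18872077 to 25544702 counts each, so 1 count was worth 0.0391 to 0.053 CPM. On the first principal component of the 18 Marchantia libraries, with 43.5% of the variance, the mutant libraries labelled no nitrate lay at 19.2, 32.9 and 21.5, and those in full medium at -50.3, -51.0 and -67.3, so replicate 2 labelled no nitrate and replicate 3 in full medium lay farthest out. One observation touches the media labels. Phosphate importer genes are known to respond to missing phosphate. Of the 7 of the PTB family tested, 6 were higher in the mutant labelled no nitrate than labelled no phosphate, and 1 was lower. MpPTB8 had 188, 148 and 267 CPM labelled no nitrate, against 23.9, 16.8 and 19.26 CPM labelled no phosphate. The ammonium transporter MpAMT1.4 was high labelled no phosphate at 177, 190.1 and 148 CPM, against 31.5, 24.7 and 7.68 CPM labelled no nitrate. Other phosphate lists went both ways in this comparison. Of 9 lipid remodelling genes tested, 2 were higher labelled no nitrate and 2 lower. Of 5 phosphate signalling and scavenging genes, 3 were higher and 2 lower. Whether the media match their labels was not tested, and media are named below as labelled.

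The mutant's response was broad and, among large changes, ran mostly upward. Of 13016 genes tested, 5128 were called (39.4%): 3024 rose (23.2%) and 2104 fell (16.2%) in the libraries labelled no nitrate at an adjusted p under 0.05. At least 2-fold changes were 1103 rises (8.47%) and 124 falls (0.953%), of which 333 and 16 had a gene symbol. The median log2 fold change of all genes tested was 0.03. Of the 1103 larger rises, 663 were highest in replicate 2, 322 in replicate 3 and 118 in replicate 1, and in 1072 the groups did not overlap, as in 47.3% of all genes tested. Without replicate 2 labelled no nitrate and replicate 3 in full medium together, 2260 genes rose and 1435 fell. In whole plants, more cells of a type and more RNA per cell cannot be told apart. A gene near 0 in full medium passed the filter on low counts only through libraries where it was higher, so counts over gene lists below are descriptions of the members tested. In several lists the share called was near the 39.4% of all genes. It was 37.5% for ammonium transporters, 42.9% for nitrate and peptide transporters and 37.9% for cupins. For WAK and LysM receptor kinases it was 44.4%, and for cyclins and cell cycle genes 41.2%. Such counts are no result about the family.

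Phosphate importers of the PTB family, which carry sodium-coupled phosphate transport in algae and early land plants, were among the clearest rises. MpPTB8, the member with the most counts, had 188, 148 and 267 CPM labelled no nitrate, against 42.4, 39.3 and 32.6 CPM in full medium (log2 2.41, SE 0.25, adjusted p = 8.68e-06). Every library labelled no nitrate was above every full-medium library, and replicate 3 was the highest. Neighbouring by locus number on chromosome 4 are MpPTB4 (Mp4g16560), MpPTB2, MpPTB3, MpPTB1 and MpPTB5 (Mp4g16610). Whether their sequences are alike enough for reads to have been divided between them was not tested. MpPTB4 had 5.95, 5.31 and 17.1 CPM against 0, 0.101 and 0 CPM, with 555 counts in the mutant libraries labelled no nitrate and 2 in full medium, a ratio of 301 (95% exact Clopper-Pearson counting interval 83.0 to 2495). Without replicate 3 labelled no nitrate the ratio was 179. MpPTB5 had 2.43, 3.55 and 5.09 CPM against 0, 0.101 and 0 CPM, a ratio of 118 (95% exact Clopper-Pearson counting interval 32.4 to 984). For both, replicate 3 labelled no nitrate was the highest and full medium was at 1 or more zeros.

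MpPTB1 was at 0 in all 3 full-medium libraries and at 1.35, 2.82 and 3.76 CPM in those labelled no nitrate, at least 56.8-fold higher against a floor of 3 counts over the group. MpPTB2 was likewise at 0 in full medium and at 1.03, 0.487 and 1.53 CPM, at least 21.4-fold higher. MpPTB3 rose too (log2 4.03, SE 0.68), with 1.79, 2.00 and 3.41 CPM against 0.210, 0.0503 and 0.161 CPM. MpPTB7, on another chromosome, overlapped between the groups (log2 0.35, SE 0.23, adjusted p = 0.247). In all, 6 of the 7 PTB genes tested rose, of 8 named, with a median log2 of 6.63, or 4.42 with the genes at 0 set at their bound, and each of the 6 was highest in replicate 3. In Tak-1 labelled no nitrate MpPTB4 had 51.2, 42.7 and 48.3 CPM and MpPTB8 261, 343 and 408 CPM, above the mutant in both (wrky10 over Tak-1 log2 -2.33, SE 0.40, adjusted p = 0.00355, and log2 -0.74, SE 0.23, adjusted p = 0.0385). The difference in response between the genotypes was not called for any PTB gene (adjusted p = 0.161 for MpPTB8).

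Genes of phosphate handling moved less. MpVPT, a vacuolar phosphate transporter gene by name, had 104, 122 and 115 CPM against 55.1, 46.4 and 69.5 CPM in full medium (log2 0.99, SE 0.12, adjusted p = 8.09e-06). MpGDPD, for a glycerophosphodiester phosphodiesterase that frees phosphate head groups from lipid breakdown, had 243, 225 and 363 CPM against 133, 127 and 198 CPM (log2 0.86, SE 0.21, adjusted p = 0.00553), without overlap between the groups. MpSPX, whose domain senses inositol pyrophosphates as a measure of phosphate, had 96.1, 113 and 104 CPM against 84.7, 83.9 and 93.7 CPM (log2 0.26, SE 0.0769, adjusted p = 0.0123). That small rise was lost without replicate 2 labelled no nitrate (log2 0.19, adjusted p = 0.0771). MpNLA, for a ubiquitin ligase that in Arabidopsis removes phosphate importers, had 2.76, 3.26 and 1.58 CPM against 3.21, 4.28 and 4.99 CPM, with overlap (log2 -0.72, SE 0.27, adjusted p = 0.0426). Its call was lost without replicate 1 or 3 labelled no nitrate or replicate 2 or 3 in full medium (adjusted p = 0.0651, 0.192, 0.0822 and 0.164). Among lipid genes, MpSQD, for sulfolipid synthesis, had 94.7, 98.3 and 97.5 CPM against 74.4, 75.0 and 65.7 CPM (log2 0.43, SE 0.0958, adjusted p = 0.00153). The phospholipase D genes MpPLD1 (log2 1.21, SE 0.16), MpPLD8 (log2 0.84, SE 0.19) and MpPLD6 (log2 0.48, SE 0.0731) rose as well, and of the 9 lipid remodelling genes tested 6 rose and 2 fell (1 without replicate 2 or 3 labelled no nitrate or replicate 2 in full medium).

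Nitrogen transport genes were mixed. The ammonium transporter MpAMT2.4 had 4.92, 6.09 and 6.31 CPM labelled no nitrate, against 0.315, 0.0503 and 0.0806 CPM in full medium (log2 5.29, SE 0.95, adjusted p = 0.000691). All 3 libraries labelled no nitrate were alike and far above full medium, where replicate 1 held most of the few counts; without it the log2 was 6.31. The member with the most counts, MpAMT1.2, had 767, 597 and 590.4 CPM against 533, 671 and 469 CPM, with overlap, and was not called (adjusted p = 0.183) except without full-medium replicate 2 (adjusted p = 0.0206). Of the 8 AMT genes tested, of 17 named, 3 rose and 0 fell (37.5% called, against 39.4% of all genes tested). The other risers, MpAMT1.5 and MpAMT2.1, had few counts (0.325, 0.195 and 0.305 CPM against 0, 0.0503 and 0 CPM, and 0.866, 2.14 and 2.04 CPM against 0.420, 0.151 and 0 CPM). The call for MpAMT1.5 was lost without full-medium replicate 1 or 3 (adjusted p = 0.0586 and 0.0717), and that for MpAMT2.1 without replicate 2 or 3 of either group (adjusted p = 0.064, 0.0531, 0.0608 and 0.0797).

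The NPF family, nitrate and peptide transporters, had 7 rises and 2 falls among 21 genes tested (1 fall without replicate 2 or 3 labelled no nitrate or replicate 1 in full medium), of 35 named, with a median log2 of 0.12. MpNPF35 had 25.5, 30.8 and 28.8 CPM labelled no nitrate, against 18.2, 18 and 17.9 CPM in full medium (log2 0.65, SE 0.11, adjusted p = 0.000111), and MpNPF29 rose by less (log2 0.58, SE 0.13). MpNIN, relative of the nitrate-responsive master regulator of flowering plants, had 248, 239 and 231 CPM against 257, 283 and 261 CPM (log2 -0.16, SE 0.0589, adjusted p = 0.0426). That fall was lost without replicate 2 or 3 of either group (adjusted p = 0.0869, 0.14, 0.176 and 0.0549).

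Plasma membrane proton pumps, which power ion uptake, changed in opposite directions at high levels. MpHA4 had 626, 701 and 560.2 CPM labelled no nitrate, against 238, 281 and 360.1 CPM in full medium (log2 1.10, SE 0.14, adjusted p = 1.77e-05). MpHA3 had 562, 507 and 505 CPM against 890.5, 754 and 728 CPM (log2 -0.59, SE 0.0773, adjusted p = 9.86e-06). The groups overlapped for neither gene, and all 3 libraries labelled no nitrate were closer to each other than to full medium. MpHA1 (log2 1.54, SE 0.29) and MpHA19 (log2 2.41, SE 0.47) rose at low levels, and of 15 pump genes tested 7 rose and 1 fell. MpLPR7, a multicopper oxidase relative of the Arabidopsis LPR proteins that sense low phosphate at the root tip, had 17.0, 15.2 and 15.0 CPM against 47.5, 41.7 and 66.9 CPM, one of the clearest falls (log2 -1.73, SE 0.16, adjusted p = 9.03e-07). MpLPR11 fell too (log2 -0.73, SE 0.20). MpLPR2 fell slightly (log2 -0.46, SE 0.18, adjusted p = 0.0441). This call was lost without replicate 2 or 3 of either group (adjusted p = 0.172, 0.0865, 0.0911 and 0.115), and the 1 other LPR gene tested was not called.

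**Figure D1:**
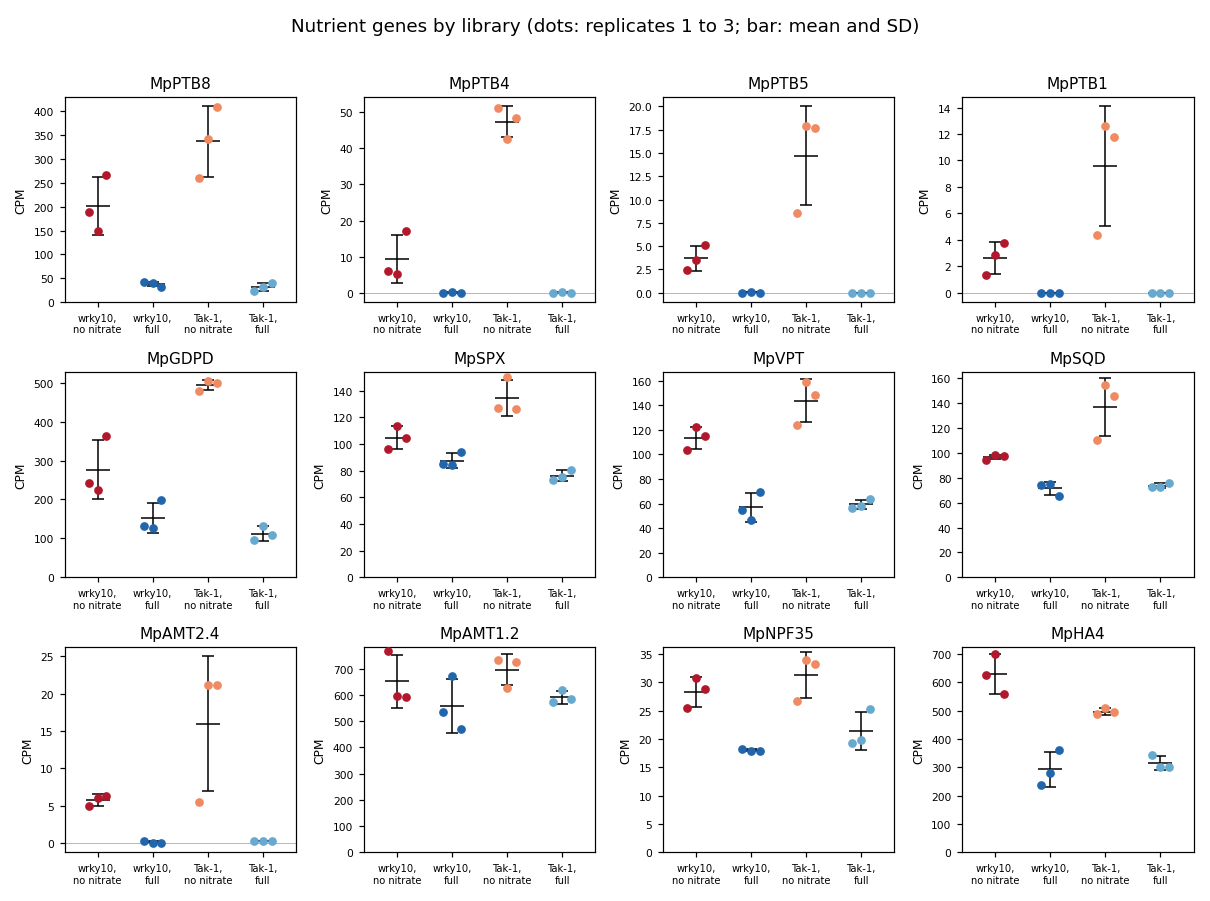
CPM of 12 nutrient genes in each library, with wrky10 labelled no nitrate, wrky10 in full medium, Tak-1 labelled no nitrate and Tak-1 in full medium from left to right in each panel (dots, replicates 1 to 3; bars, mean and SD, n = 3). The PTB genes are near 0 or low in full medium and above it in every library labelled no nitrate, and for MpPTB4 the mutant averages 9.45 ± 6.63 CPM against 47.4 ± 4.31 CPM in Tak-1.

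The WRKY family as a whole shifted upward: of 13 genes tested, of 14 named, 10 rose and 1 fell, with a median log2 of 0.49, and 7 of the 10 were highest in replicate 2. MpWRKY7 had 3.84, 16.2 and 3.92 CPM labelled no nitrate, against 0.420, 0.302 and 0.322 CPM in full medium (log2 4.51, SE 0.57, adjusted p = 1.09e-05). MpWRKY3 had 14.8, 45.4 and 20.8 CPM against 1.63, 0.906 and 1.13 CPM (log2 4.47, SE 0.60, adjusted p = 6.66e-05). MpWRKY6 had 2.22, 8.03 and 1.22 CPM against 0.0526, 0.201 and 0.121 CPM (log2 4.87, SE 0.87, adjusted p = 0.000339). The groups overlapped for none of the 3, and replicate 2 stood far above its partners in each; without that replicate their log2 fold changes were 3.46, 3.87 and 3.71, all still called.

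Other WRKY genes rose evenly over the replicates. MpWRKY8 had 38.6, 42.9 and 45.6 CPM labelled no nitrate, against 21.8, 17.8 and 21.0 CPM in full medium (log2 1.07, SE 0.11, adjusted p = 5.49e-07). MpWRKY11, the member with the most counts, had 945, 949 and 887 CPM against 711, 705 and 752 CPM (log2 0.36, SE 0.0483, adjusted p = 1.33e-05). MpWRKY14 (log2 1.76, SE 0.33) and MpWRKY2 (log2 0.31, SE 0.0670) also rose without overlap. MpWRKY1 rose by less (log2 0.32, SE 0.0830, adjusted p = 0.00528) and lost its call without replicate 2 labelled no nitrate (adjusted p = 0.0501). MpWRKY12 overlapped (log2 0.49, SE 0.17, adjusted p = 0.0265) and was lost without replicate 3 labelled no nitrate or replicate 1 or 2 in full medium (adjusted p = 0.121, 0.116 and 0.0911). MpWRKY5 fell slightly (log2 -0.18, SE 0.0643, adjusted p = 0.0316), a call lost without replicate 1 or 2 labelled no nitrate or replicate 2 or 3 in full medium (adjusted p = 0.106, 0.0571, 0.0842 and 0.065). MpWRKY9 (log2 -0.21, adjusted p = 0.13) and MpWRKY13 (log2 0.40, adjusted p = 0.0694) were not called, although MpWRKY13 was called without replicate 2 labelled no nitrate or replicate 3 in full medium (adjusted p = 0.0177 and 0.0107).

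Pathogenesis-related (PR) genes, a set of antimicrobial and stress proteins, included rises in genes close to silent in full medium and in genes already well expressed there. MpPR1o, of the PR1 family of secreted cysteine-rich proteins, had 61.2, 224 and 139.6 CPM labelled no nitrate, against 0.473, 0.201 and 0.282 CPM in full medium (log2 8.79, SE 0.70, adjusted p = 1.34e-06). Replicate 1 was the lowest of the libraries labelled no nitrate and still far above full medium. The thaumatin-like MpPR5b had 329, 642 and 501 CPM against 47.8, 41.7 and 49.2 CPM (log2 3.41, SE 0.35, adjusted p = 9.23e-06), while its relative MpPR5a overlapped and was not called (log2 0.19, adjusted p = 0.327); without full-medium replicate 2 it was called (log2 0.41, adjusted p = 0.0137).

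The PR6 genes, named for proteinase inhibitors, moved together. MpPR6a had 16.9, 52.8 and 39.8 CPM labelled no nitrate, against 2.84, 2.82 and 4.19 CPM in full medium (log2 3.46, SE 0.36, adjusted p = 4.7e-06). MpPR6b had 12, 36.0 and 24.5 CPM against 2.05, 1.81 and 2.58 CPM (log2 3.48, SE 0.40, adjusted p = 8.7e-06). MpPR6c, next to MpPR6b by locus number, had 15.3, 40.8 and 32.9 CPM against 1.10, 0.453 and 1.65 CPM (log2 4.75, SE 0.53, adjusted p = 1e-05). All 3 were highest in replicate 2 and lowest in replicate 1. MpPR4, of a chitin-binding family, had 5.84, 5.21 and 9.92 CPM against 0.0526, 0.0503 and 0 CPM, with 410 counts in the mutant libraries labelled no nitrate and 2 in full medium, a ratio of 223 (95% exact Clopper-Pearson counting interval 61.2 to 1845). Germin-like PR15 proteins, cell-wall enzymes that can make hydrogen peroxide, were nearly silent in full medium: summed over the 11 named genes the list held 10.4, 41.0 and 10.3 CPM labelled no nitrate, against 0.578, 0.151 and 0.403 CPM in full medium. MpPR15h led with 4.17, 24.3 and 5.80 CPM against 0.0526, 0 and 0.161 CPM (log2 7.09, SE 1.11, adjusted p = 0.000201). All 5 PR15 genes tested rose and all 5 were highest in replicate 2; without it MpPR15h had a log2 of 5.90, and without full-medium replicate 3, which held most of its few counts there, one of 8.49. In Tak-1 labelled no nitrate the PR15 sum was 0.601, 3.59 and 2.35 CPM, against 0.252, 0.157 and 0.257 CPM in full medium. The difference in response between the genotypes was called for 0 of the 5 PR15 genes tested.

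A pair of cupin genes, storage-protein relatives of the germins, were close to off in full medium. MpCupin85 had 5.41, 9.93 and 9.62 CPM labelled no nitrate, against 0.105, 0 and 0 CPM in full medium, a ratio of 268 (95% exact Clopper-Pearson counting interval 73.7 to 2217). MpCupin105 was at 0 in all full-medium mutant libraries and at 1.51, 3.21 and 1.37 CPM labelled no nitrate, at least 43.8-fold higher; in Tak-1 it had 0.601, 0.728 and 0.962 CPM labelled no nitrate and 0.504, 0.550 and 0.257 CPM in full medium. Cupins as a list did not lean one way, with 7 rises and 4 falls among 29 genes tested, of 103 named.

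Enzymes that cut the walls of fungi and of plants followed. The chitinase MpGH19.3 had 111, 284 and 357 CPM labelled no nitrate, against 4.83, 2.52 and 5.36 CPM in full medium (log2 5.87, SE 0.62, adjusted p = 1.26e-05), with replicate 3 the highest. MpGH19.13 (log2 2.35, SE 0.30) and MpGH19.5 (log2 1.83, SE 0.19) rose too, and MpGH18.8 fell (log2 -0.68, SE 0.11). The beta-1,3-glucanase family split, with 9 rises and 8 falls among 22 genes tested (5 falls without replicate 2 labelled no nitrate or replicate 1 in full medium). Its risers include a run of neighbours on chromosome 7: MpGH17.25 had 13.1, 27.8 and 15.6 CPM against 3.52, 3.37 and 3.02 CPM (log2 2.51, SE 0.28, adjusted p = 3.11e-06), and MpGH17.23 (log2 1.80, SE 0.23), MpGH17.21 (log2 1.33, SE 0.12) and MpGH17.20 (log2 1.09, SE 0.0990) rose in step.

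Some receptor genes rose. MpNBS-LRR9, of the intracellular immune receptor family, had 11.8, 20.2 and 15.8 CPM labelled no nitrate, against 3.57, 3.07 and 3.95 CPM in full medium (log2 2.17, SE 0.20, adjusted p = 2.73e-07). MpNBS-LRR20 had 16, 25.5 and 21.8 CPM against 7.57, 8.05 and 9.71 CPM (log2 1.32, SE 0.15, adjusted p = 3.38e-06). Of 20 such receptors tested 10 rose and 1 fell, and 6 rose and 0 fell without replicate 2 labelled no nitrate and replicate 3 in full medium. The lectin receptor kinase MpRLK-Pelle_L-LEC2 had 74.2, 94.2 and 74.8 CPM against 31.8, 29.1 and 30.9 CPM (log2 1.41, SE 0.13, adjusted p = 8.58e-07), and MpRLK-Pelle_L-LEC17 was at 0 in full medium and at 0.757, 0.536 and 1.17 CPM labelled no nitrate, at least 17.4-fold higher. LysM receptor kinases bind chitin and related glycans; MpRLK-Pelle_LysM2 (log2 2.92, SE 0.28) and MpRLK-Pelle_LysM5 (log2 0.64, SE 0.0735) rose. In their list of WAK and LysM receptor kinases 6 rose, 2 fell and 10 were not called of 18 tested, with a median log2 of 0.01. Without replicate 2 labelled no nitrate 3 rose, and with DESeq2 size factors 4 fell. Of 6 MAP kinase and MAP kinase kinase genes tested, only MpMPK1 was called, with 397, 436 and 379 CPM against 308, 325 and 294 CPM (log2 0.39, SE 0.0586, adjusted p = 4.54e-05). The groups overlapped for none of the receptor and kinase genes named here.

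Lipoxygenases, which oxidise fatty acids at the start of oxylipin synthesis, rose in 9 of 11 genes tested, 8 of them highest in replicate 2, and 1 fell. Without replicate 2 labelled no nitrate and replicate 3 in full medium together, 6 rose. MpLOX1 had 157, 553 and 237 CPM labelled no nitrate, against 30.1, 20.8 and 28.3 CPM in full medium (log2 3.58, SE 0.50, adjusted p = 0.000125), and without replicate 2 its log2 was 2.90. MpLOX2 was steadier, with 396, 442 and 377 CPM against 214, 256 and 236 CPM (log2 0.78, SE 0.0836, adjusted p = 1.23e-06). MpLOX5 (log2 1.93, SE 0.26) and MpLOX3 (log2 1.46, SE 0.19) rose too, and the groups overlapped for none of these 4. Of 3 genes for perceiving the oxylipin hormone of liverworts, dinor-OPDA, none rose and 1 fell: the receptor gene MpCOI1 had 88.9, 87.1 and 91.8 CPM against 111, 105 and 101 CPM (log2 -0.24, SE 0.0619, adjusted p = 0.00435), and the repressor MpJAZ, a gene that this hormone induces, had 26.3, 30.0 and 31.0 CPM against 34.5, 33.0 and 32.1 CPM (log2 -0.19, adjusted p = 0.0628). MpJAZ was called as lower without replicate 3 labelled no nitrate (adjusted p = 0.0417).

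The pathway from chorismate to phenolics rose at its entry. In the shikimate pathway, which feeds phenylalanine, 6 of 10 genes tested rose, all 6 highest in replicate 2, and 1 fell (0 without replicate 2 labelled no nitrate and replicate 3 in full medium together). The chorismate synthase gene MpCS had 216, 256 and 212 CPM labelled no nitrate, against 156, 174 and 161 CPM in full medium (log2 0.48, SE 0.0702, adjusted p = 3.43e-05). MpADT4, for arogenate dehydratase, the last step to phenylalanine, rose as well (log2 0.59, SE 0.14, adjusted p = 0.00299). MpC4H1 had 759, 1387 and 777 CPM against 283, 299.9 and 307 CPM (log2 1.72, SE 0.22, adjusted p = 4.7e-05), and replicate 2 was far above its partners. Among PAL genes MpPAL3 had 7.36, 33.6 and 4.32 CPM against 0.263, 0 and 0.0806 CPM (log2 7.03, SE 1.10, adjusted p = 0.000235; log2 5.65 without replicate 2 labelled no nitrate and 8.23 without replicate 1 in full medium), while MpPAL10 had 143, 149.7 and 145 CPM against 86.4, 90.7 and 96.9 CPM (log2 0.68, SE 0.0722, adjusted p = 1.21e-06). In contrast MpHCT, the acyltransferase gene at the branch to caffeoyl esters, had 279, 270.1 and 288 CPM against 446, 401 and 454 CPM and fell (log2 -0.64, SE 0.0808, adjusted p = 7.51e-06).

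In the chalcone synthase family 17 of 21 genes tested rose and 1 fell, of 28 named, with a median log2 of 2.11, and 13 of the 17 were highest in replicate 2. MpPKS/CHS13 had 34.4, 171 and 42.2 CPM labelled no nitrate, against 0.841, 1.61 and 1.77 CPM in full medium (log2 5.84, SE 0.76, adjusted p = 7.02e-05). MpPKS/CHS21 had 24.2, 73.6 and 30.8 CPM against 3.99, 3.62 and 3.62 CPM (log2 3.52, SE 0.50, adjusted p = 0.000119). Neither overlapped, and replicate 2 was far above its partners; without it their log2 fold changes were 4.73 and 2.88. MpPKS/CHS-like3 was even over the replicates, with 112, 138 and 160.5 CPM against 58.6, 56.3 and 55.5 CPM (log2 1.27, SE 0.14, adjusted p = 5.44e-06). None of the 4 chalcone isomerase family genes, which act next on the way to flavonoids, was called; MpCHI had 73.8, 80.8 and 66.4 CPM against 69.2, 77.9 and 72.3 CPM (adjusted p = 0.924). MpR2R3-MYB14, the MYB factor known in Marchantia to switch on auronidin synthesis, had 1.41, 5.21 and 2.90 CPM against 0.736, 0.554 and 0.685 CPM (log2 2.27, SE 0.44, adjusted p = 0.00052).

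Many enzymes that oxidise, couple or decorate phenolics rose. The polyphenol oxidase MpPPO4 had 129.5, 260.0 and 135 CPM labelled no nitrate, against 10.0, 10.2 and 10.1 CPM in full medium (log2 4.12, SE 0.37, adjusted p = 3.66e-06). MpPPO32 was the steadiest large rise, with 139, 139 and 156 CPM against 12.5, 17.16 and 14.2 CPM (log2 3.31, SE 0.13, adjusted p = 2.97e-11), and MpPPO3 had 25.4, 50.6 and 39.6 CPM against 1.84, 1.41 and 2.94 CPM (log2 4.19, SE 0.51, adjusted p = 3.09e-05). All libraries labelled no nitrate stood above full medium for these 3. MpPPO22, with 251, 271 and 265 CPM against 370.5, 356 and 372 CPM, fell (log2 -0.48, SE 0.0572), and the sum over all polyphenol oxidase genes was 1363, 1519.8 and 1453 CPM against 1474, 1184 and 1509 CPM. The class III peroxidases, a large family that builds and stiffens walls, summed to 3064, 4309.8 and 3559.5 CPM against 1534, 1501 and 1713 CPM, with 79 rises and 2 falls (4 without replicate 3 in full medium) among 109 genes tested, of 166 named. MpPOD137 was at 0 in full medium and at 1.62, 2.39 and 3.05 CPM labelled no nitrate, at least 50.3-fold higher, and the same held for MpPOD58 (at least 21.7-fold) and MpPOD56 (at least 20.6-fold). At higher levels, MpPOD148 had 164, 165 and 154 CPM against 85.8, 109.7 and 101 CPM (log2 0.70, SE 0.0754, adjusted p = 1.23e-06).

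Dirigent proteins guide the coupling of phenolic radicals. MpDIR35 had 71.3, 219 and 91.1 CPM labelled no nitrate, against 8.51, 8.15 and 9.63 CPM in full medium (log2 3.85, SE 0.40, adjusted p = 1.14e-05; log2 3.21 without replicate 2). MpDIR9 had 270.4, 370.1 and 325 CPM against 82.3, 73.2 and 68.5 CPM (log2 2.11, SE 0.18, adjusted p = 1.48e-06). The neighbouring O-methyltransferase genes MpOMT14 and MpOMT15 rose, with 5.57, 24.1 and 5.85 CPM against 0.210, 0.201 and 0.443 CPM (log2 5.30, SE 0.77, adjusted p = 9.9e-05; log2 4.25 without replicate 2) and 3.79, 7.06 and 4.27 CPM against 0.683, 0.805 and 0.443 CPM (log2 2.98, SE 0.34, adjusted p = 2.23e-06). In all 4 genes the groups did not overlap and replicate 2 was the highest. UDP-glycosyltransferases, which add sugars to small molecules, had 13 rises and 3 falls among 31 genes tested, 5 falls without replicate 3 in full medium, and 6 rises without replicate 2 labelled no nitrate and replicate 3 in full medium.

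**Figure D2:**
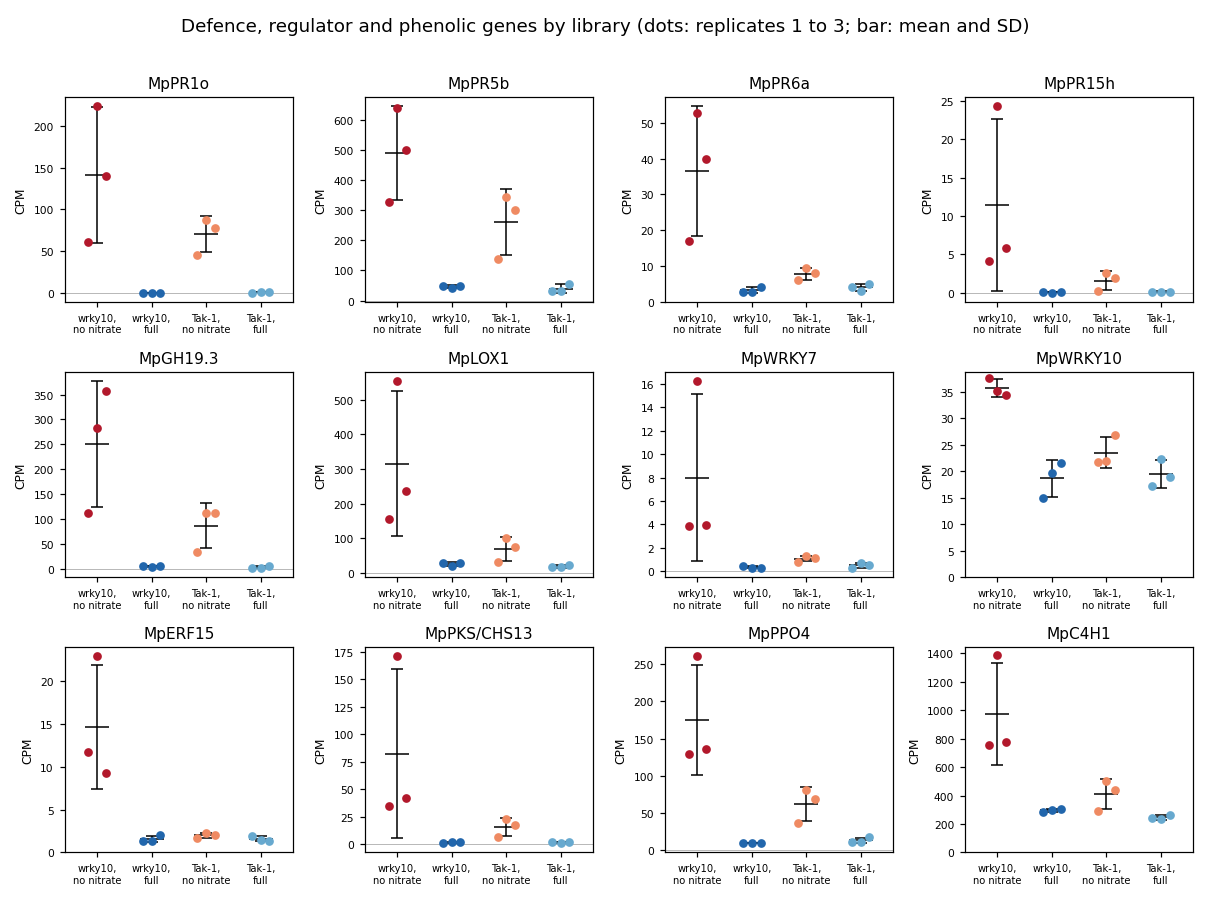
CPM of 12 defence, regulator and phenolic genes in each library, with wrky10 labelled no nitrate, wrky10 in full medium, Tak-1 labelled no nitrate and Tak-1 in full medium from left to right in each panel (dots, replicates 1 to 3; bars, mean and SD, n = 3). Replicate 2, the middle dot, is the highest mutant library labelled no nitrate for MpPR1o, MpLOX1, MpWRKY7, MpERF15 and MpPKS/CHS13, and all 3 lie above full medium.

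Among terpene synthases 8 of 16 genes tested rose and 1 fell (0 without replicate 3 labelled no nitrate). MpTPS6 had 49.0, 63.8 and 44.2 CPM labelled no nitrate, against 4.41, 5.23 and 2.13 CPM in full medium (log2 3.77, SE 0.31, adjusted p = 1.11e-06). Glutathione transferases, which conjugate reactive and toxic compounds, split into 13 rises and 6 falls among 32 genes tested (3 falls without replicate 2 labelled no nitrate, replicate 3 in full medium or both). MpGST9 had 378, 617 and 365 CPM against 119, 131 and 123 CPM (log2 1.87, SE 0.17, adjusted p = 2.45e-06). MpGST37 had 136, 107 and 156 CPM against 248, 216 and 256 CPM in the other direction (log2 -0.85, SE 0.10, adjusted p = 6.7e-06). Antioxidant enzymes had 7 rises and 6 falls among 28 genes tested, with 3 falls without replicate 2 labelled no nitrate and 2 without replicate 3 in full medium as well. The ascorbate peroxidase MpAPX3 rose (log2 0.53, SE 0.0855). Autophagy genes, which recycle cell contents under starvation in many eukaryotes, had 3 rises and 3 falls among 21 genes tested. Of these, 1 rise was called without replicate 2 labelled no nitrate and 0 without replicate 1 or 3 in full medium, and 1 fall without replicate 3 of either group.

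Cell wall genes moved both ways. Expansins, which loosen walls, rose in 18 and fell in 7 of 35 genes tested; 4 fell without replicate 2 labelled no nitrate, and 3 without replicate 3 in full medium as well. MpExpansin11 had 10.4, 15.9 and 10.9 CPM labelled no nitrate, against 1.16, 1.91 and 0.362 CPM in full medium (log2 3.49, SE 0.47, adjusted p = 7.12e-05; log2 4.11 without full-medium replicate 2). MpExpansin34 fell by the most of the genes named here, with 4.38, 3.99 and 3.10 CPM against 19.34, 18.3 and 14.1 CPM (log2 -2.17, SE 0.19, adjusted p = 1.53e-07), and MpExpansin32 fell as well (log2 -0.86, SE 0.10). The xyloglucan enzyme gene MpGH16.32 (log2 1.82, SE 0.21), the pectin-cutting polygalacturonase MpGH28.4 (log2 3.03, SE 0.25) and MpCSLD2 (log2 2.66, SE 0.38), of the family that builds the walls of tip-growing cells, rose. MpCE8.3, a pectin methylesterase gene, had 219, 183 and 208 CPM against 345, 325 and 369 CPM and fell (log2 -0.77, SE 0.0976, adjusted p = 1.01e-05).

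Some genes in the lists of photosynthesis and chlorophyll, DNA replication and the cell cycle fell, by small amounts. The first list held MpRBCS and genes of chlorophyll synthesis only. All 5 genes of the photosynthesis and chlorophyll list were lower: MpGUN5, for a subunit of the chelatase that puts magnesium into chlorophyll, had 322, 341 and 329 CPM labelled no nitrate, against 536, 488 and 496 CPM in full medium (log2 -0.62, SE 0.0572, adjusted p = 2.69e-07). MpRBCS, for the small subunit of Rubisco, had 313, 309 and 356 CPM against 466, 388 and 441 CPM (log2 -0.41, SE 0.0928, adjusted p = 0.00207). MpCHLI1/2-like (log2 -0.35, SE 0.0660), MpCHLD (log2 -0.29, SE 0.0696) and MpGUN4 (log2 -0.32, SE 0.0904) fell by less, and MpGUN4 lost its call without replicate 2 labelled no nitrate (adjusted p = 0.0551). Of 36 histone and DNA replication genes tested 16 fell, 20 were not called and 0 rose (1 without replicate 2 in full medium), with a median log2 of -0.22. The share called was 44.4%, against 39.4% of all genes tested. Of all genes tested, 16.2% fell. The replicative helicase gene MpMCM4 had 7.79, 9.84 and 7.22 CPM against 15.6, 14.1 and 12.4 CPM (log2 -0.76, SE 0.13, adjusted p = 0.000178), and MpMCM6 (log2 -0.65, SE 0.12), MpMCM2 (log2 -0.51, SE 0.11) and the histone gene MpH4d (log2 -0.35, SE 0.0790) fell. Of 17 cyclin and cell cycle genes 5 fell and 2 rose (41.2% called, against 39.4% of all genes tested), which is no result about the family. Without replicate 2 labelled no nitrate or replicate 1 in full medium 3 fell. Without replicate 2 labelled no nitrate and replicate 3 in full medium together 2 fell. The D-type cyclin gene MpCYCD_2 fell (log2 -0.47, SE 0.0792) and the kinase gene MpCDKA rose (log2 0.29, SE 0.0627).

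Hormone genes changed one by one. In cytokinin signalling the B-type response regulator MpRRB had 127, 120.3 and 120.2 CPM labelled no nitrate, against 169, 178 and 160.1 CPM in full medium (log2 -0.47, SE 0.0588, adjusted p = 7.2e-06), the A-type MpRRA fell by less (log2 -0.25, SE 0.0506), and the cytokinin oxidase MpCKX1, which breaks the hormone down, had 0.920, 1.07 and 1.73 CPM against 3.68, 3.07 and 3.26 CPM (log2 -1.42, SE 0.26, adjusted p = 0.000306). For abscisic acid, the biosynthesis gene MpABA1 had 91.4, 93.2 and 91.9 CPM against 137, 158 and 163 CPM (log2 -0.73, SE 0.0886, adjusted p = 4.98e-06), the receptor gene MpPYL1 fell (log2 -0.48, SE 0.0640), and MpCYP707A, of the family that degrades the hormone, had 15.9, 22.2 and 19.0 CPM against 3.15, 4.83 and 6.0 CPM (log2 2.02, SE 0.22, adjusted p = 2e-06). Of the 9 genes tested in the abscisic acid list, 2 fell, 1 rose and 6 were not called. The rise was that of MpNCED (log2 1.69, adjusted p = 0.0477), a call lost in 9 of 12 alternative settings. In auxin biology MpTAA, for the first step of auxin synthesis, rose (log2 0.86, SE 0.11), as did the efflux carrier gene MpPIN4 (log2 1.44, SE 0.24). The small auxin-up RNA gene MpSAUR1 had 46.4, 43.8 and 33.5 CPM against 159, 138 and 80.9 CPM (log2 -1.61, SE 0.25, adjusted p = 0.000243), and MpSAUR3 fell (log2 -0.74, SE 0.14) while MpSAUR9 rose (log2 2.2, SE 0.26). MpGARP6, of a plant transcription factor family that includes phosphate and nitrate regulators, had 29.9, 26.2 and 21.4 CPM against 79.4, 89.2 and 78.5 CPM, the lowest full-medium library standing well above the highest library labelled no nitrate (log2 -1.67, SE 0.12, adjusted p = 2.72e-08).

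The remaining largest falls among named genes were MpCupin63 (log2 -1.43, SE 0.22), MpDFR-like5 (log2 -1.39, SE 0.39), MpCYP735-like (log2 -1.39, SE 0.21), MpPOD2 (log2 -1.24, SE 0.18) and MpLTP-like65 (log2 -1.37, SE 0.37). MpLTP-like65 lost its call without full-medium replicate 3, which held its highest level (log2 -0.82, adjusted p = 0.057). With only the groups compared, MpLTP-like65 and MpDFR-like5 both lost their calls. The same held without replicate 2 labelled no nitrate and replicate 3 in full medium together.

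**Figure D3:**
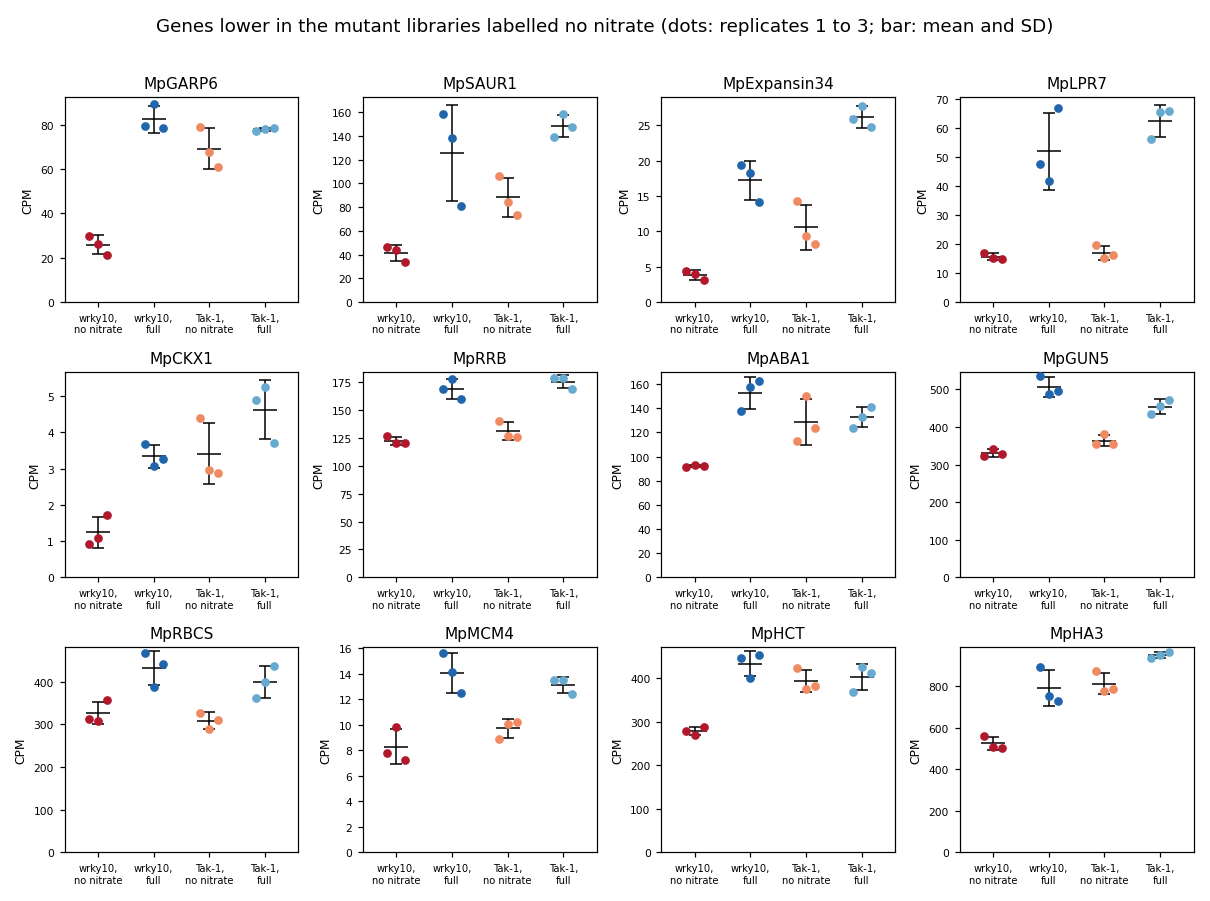
CPM of 12 genes that were lower in the mutant labelled no nitrate, with wrky10 labelled no nitrate, wrky10 in full medium, Tak-1 labelled no nitrate and Tak-1 in full medium from left to right in each panel (dots, replicates 1 to 3; bars, mean and SD, n = 3). For MpGARP6 the mutant averages 25.8 ± 4.26 CPM labelled no nitrate and 82.3 ± 5.93 CPM in full medium, against 69.2 ± 9.11 and 77.9 ± 0.703 CPM in Tak-1.

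Markers of other tissues gave little. The 5 oil body cell genes tested, which mark the terpene-storing cells of the thallus, had no call, and their sum was 76.7, 73.1 and 72.2 CPM labelled no nitrate, against 81.3, 74.5 and 67.8 CPM in full medium. Of the 3 gemma cup genes tested, MpGCAM1 rose, with 3.62, 2.78 and 3.56 CPM labelled no nitrate, against 1.89, 1.61 and 1.01 CPM (log2 1.16, SE 0.29, adjusted p = 0.00364), and the gemma cup list summed to 98.7, 91.5 and 88.1 CPM against 86.9, 79.9 and 84.9 CPM. Of the 2 gametangium genes tested, the germ cell regulator MpRKD fell slightly (log2 -0.32, SE 0.0569). The other, MpMID, was not called (log2 0.40, adjusted p = 0.099), but was called as higher without full-medium replicate 2 (adjusted p = 0.026). The gametangium list summed to 128, 122 and 121 CPM against 157, 152 and 143 CPM. Its sperm protamine gene MpPRM was at 0 in every library labelled no nitrate, had counts in full medium and was not tested. The sporophyte list summed to 0.812, 1.95 and 1.58 CPM against 0.736, 1.21 and 0.967 CPM. No rhizoid gene of the list had a match in the name table. The part of such tissues in the results was not tested.

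**Figure D4:**
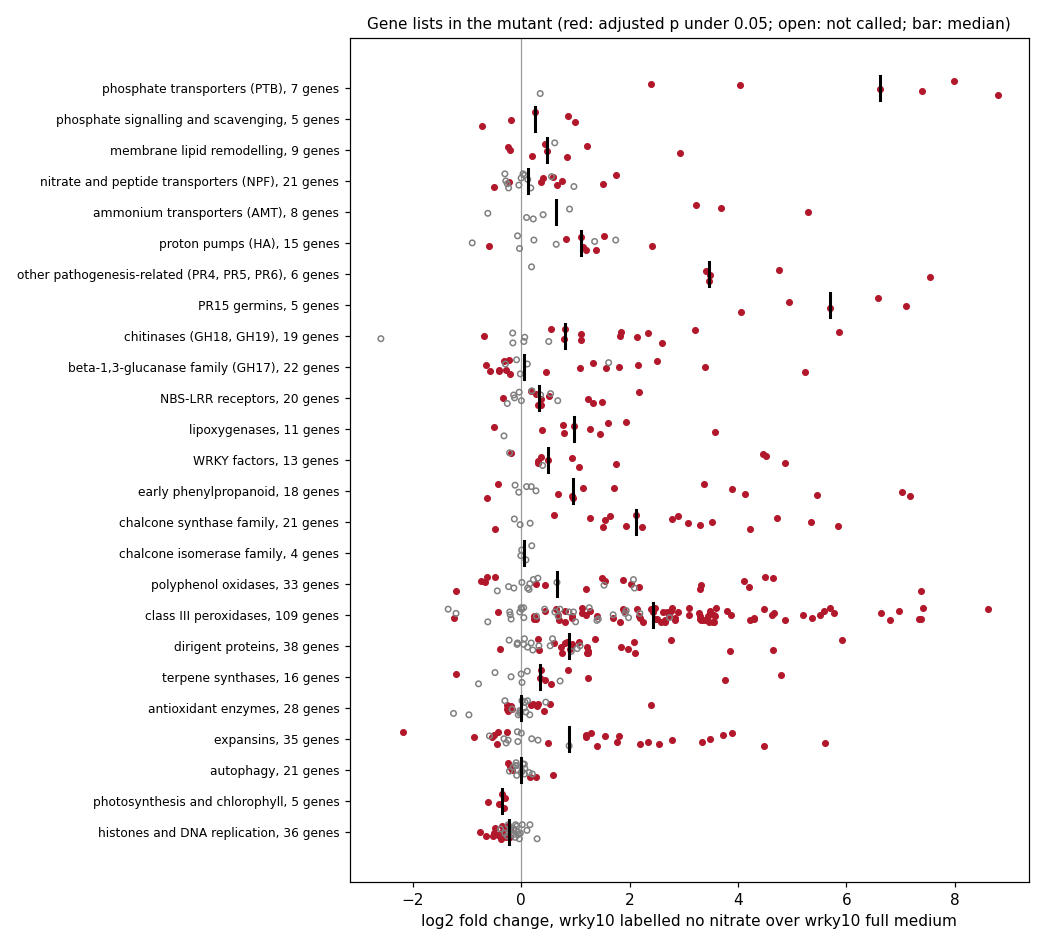
Log2 fold change of each tested gene of 25 gene lists, wrky10 labelled no nitrate over wrky10 in full medium (red, adjusted p under 0.05; open, not called; black bar, median of the list). The median is 6.63 for the PTB genes, 2.11 for the chalcone synthase family and -0.22 for histone and replication genes.

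The mutant's response was then set against that of Tak-1, as the difference of the fold changes between labelled no nitrate and full medium, wrky10 minus Tak-1. In Tak-1 alone 2679 genes rose (20.6%) and 1807 fell (13.9%); 1983 rose and 1011 fell in both genotypes. The difference was called for 277 genes (2.13%), with 122 responses higher in the mutant (0.937%) and 155 lower (1.19%). Of the 122, 111 rose in the mutant, and of the 155, 81 fell, 47 were not called and 27 rose. The count rests on several libraries: it was 162 without wrky10 replicate 2 labelled no nitrate, 151 and 160 without Tak-1 replicate 2 or 3 labelled no nitrate, and 132 and 164 without Tak-1 replicate 1 or 2 in full medium, and the higher genes numbered 72 without Tak-1 replicate 1 labelled no nitrate. Without wrky10 replicate 2 labelled no nitrate and replicate 3 in full medium together it was 124.

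Responses higher in the mutant included regulators and defence genes, but defence lists did not all lean this way. The response was higher for 2 NBS-LRR receptors and lower for 1, and higher for 0 WAK and LysM receptor kinases and lower for 2. In the beta-1,3-glucanase list and that of PR4, PR5 and PR6, 2 each were higher and 0 lower. No difference was called among the PR1, PR15, chitinase, lectin receptor kinase and lipoxygenase genes tested. MpERF15, an ethylene response factor, had 11.7, 22.8 and 9.31 CPM labelled no nitrate and 1.31, 1.36 and 2.01 CPM in full medium in the mutant, against 1.71, 2.3 and 1.98 CPM labelled no nitrate and 1.92, 1.49 and 1.34 CPM in full medium in Tak-1 (difference log2 2.88, SE 0.47, adjusted p = 0.00397). The mutant's libraries labelled no nitrate stood above all others. MpNBS-LRR20, given above for the mutant, had 7.53, 8.52 and 8.98 CPM labelled no nitrate and 10.6, 8.79 and 8.43 CPM in full medium in Tak-1 (difference log2 1.47, SE 0.22, adjusted p = 0.00239). MpOMT15 (log2 2.65, SE 0.47), the transcription factor genes MpR2R3-MYB5 (log2 0.90, SE 0.18) and MpBHLH10 (log2 0.73, SE 0.14), and MpGH17.20 (log2 0.71, SE 0.14) and MpWRKY1 (log2 0.63, SE 0.12) were also higher in response, and each kept its call without any 1 of the 12 libraries. Over all 19 alternative settings, MpR2R3-MYB5 was called in 17 and MpGH17.20 in 18. MpPR6a had 6.01, 9.30 and 8.02 CPM labelled no nitrate and 4.24, 3.06 and 4.99 CPM in full medium in Tak-1 (difference log2 2.53, SE 0.50, adjusted p = 0.0187), a call lost without Tak-1 replicate 1 in full medium (adjusted p = 0.0546).

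The difference for MpWRKY10 itself was small (log2 0.67, SE 0.17, adjusted p = 0.0424). It was lost without any 1 of 8 libraries, and kept without replicate 3 of the mutant in either medium, Tak-1 replicate 3 labelled no nitrate or Tak-1 replicate 1 in full medium; its adjusted p reached 0.12 without Tak-1 replicate 2 in full medium. For MpWRKY7 (log2 3.51, SE 0.86, adjusted p = 0.0406) the call was lost without any 1 of the 9 libraries other than the mutant's labelled no nitrate, and for MpPR6b (log2 2.4, SE 0.56, adjusted p = 0.0394) without any 1 of 10 libraries, all but wrky10 replicate 1 labelled no nitrate and Tak-1 replicate 2 in full medium. MpGH17.25 (log2 1.81, SE 0.39, adjusted p = 0.0243) was lost without wrky10 replicate 3 in full medium, Tak-1 replicate 3 labelled no nitrate or Tak-1 replicate 1 or 2 in full medium (adjusted p = 0.0613, 0.0527, 0.0645 and 0.0645).

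Responses lower in the mutant were of both kinds. MpGARP6, which fell in the mutant, had 78.9, 67.9 and 60.8 CPM labelled no nitrate and 77.1, 78.1 and 78.5 CPM in full medium in Tak-1 (difference log2 -1.51, SE 0.16, adjusted p = 0.000412). MpPPO55 had 17.4, 16.9 and 17.7 CPM labelled no nitrate and 26.1, 20.3 and 24.1 CPM in full medium in the mutant, against 27.8, 40.6 and 33.8 CPM labelled no nitrate and 11, 13.3 and 15.6 CPM in full medium in Tak-1 (difference log2 -1.79, SE 0.25, adjusted p = 0.00248), and the mutant's own change was called only without full-medium replicate 2 (adjusted p = 0.0624 with all libraries and 0.0426 without it). MpIAMT1, for an enzyme that methylates the auxin indole-3-acetic acid, had 6.38, 4.58 and 8.85 CPM labelled no nitrate and 5.57, 5.89 and 4.63 CPM in full medium in the mutant, against 11.4, 10.4 and 11.5 CPM labelled no nitrate and 3.53, 2.79 and 3.08 CPM in full medium in Tak-1 (difference log2 -1.52, SE 0.28, adjusted p = 0.00881). In the mutant alone it was called without replicate 2 labelled no nitrate (adjusted p = 0.0373).

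MpUGT7 fell in the mutant (log2 -0.47, SE 0.11) and rose in Tak-1 (log2 0.63, SE 0.11), a difference with adjusted p = 0.00173. The ethylene response factor genes MpERF11 (log2 -1.16, SE 0.22) and MpERF18 (log2 -0.66, SE 0.14), and MpSAUR3 (log2 -1.01, SE 0.19), MpABA1 (log2 -0.69, SE 0.12), MpHCT (log2 -0.60, SE 0.11) and MpSPX (log2 -0.56, SE 0.11) were lower in response as well, each called without any 1 of the 12 libraries. Over all 19 alternative settings, MpERF18 was called in 17, and MpERF11 and MpHCT in 18. For MpSPX the Tak-1 libraries had 127, 150.0 and 126 CPM labelled no nitrate and 72.7, 75.5 and 80.7 CPM in full medium. MpGDPD had 478, 504 and 498 CPM labelled no nitrate and 95, 132 and 109 CPM in full medium in Tak-1 (difference log2 -1.28, SE 0.30, adjusted p = 0.0424), but this call was lost without any 1 of 10 libraries, all but wrky10 replicate 3 labelled no nitrate and wrky10 replicate 2 in full medium.

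**Figure D5:**
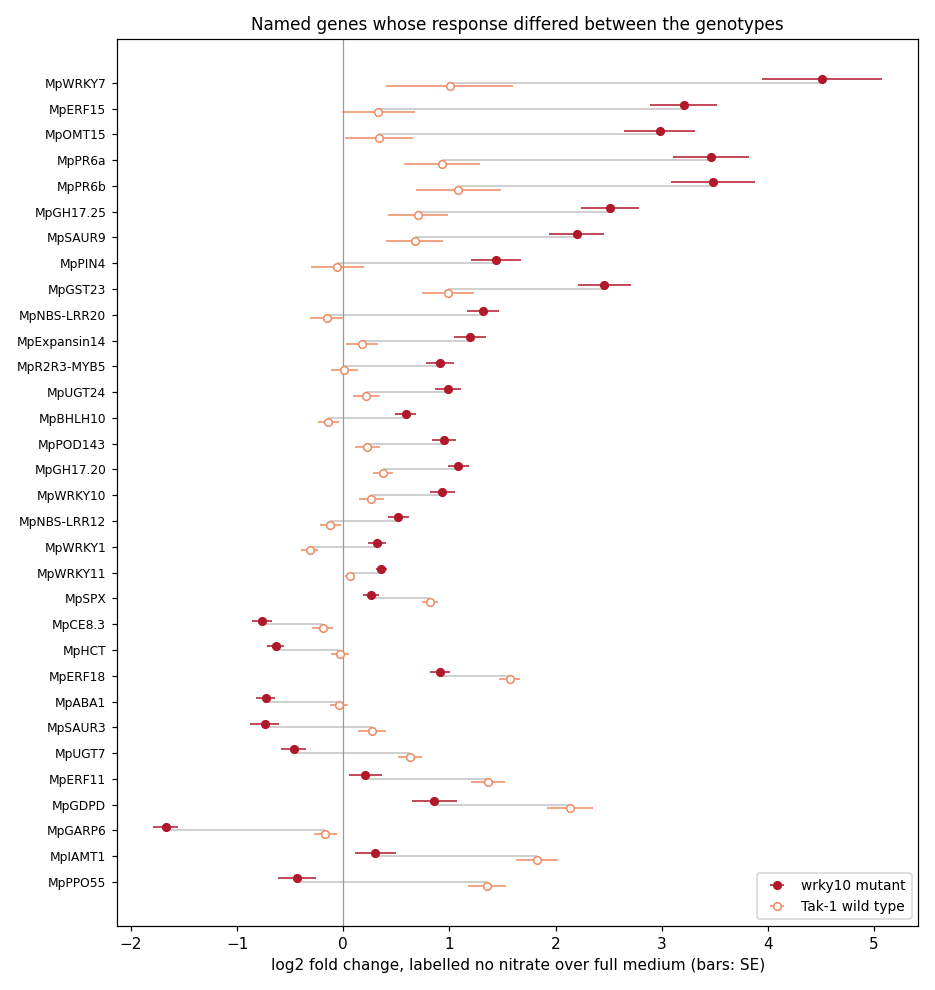
Log2 fold change between labelled no nitrate and full medium in the wrky10 mutant (filled) and in Tak-1 (open) for 32 named genes whose response differed between the genotypes at an adjusted p under 0.05 (bars, SE), ordered by the difference. MpWRKY7 at 4.51 against 1.00 and MpPPO55 at -0.44 against 1.35 lie at the ends of the order.

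Within the mutant, the libraries labelled no nitrate were last compared with those labelled no phosphate. Of the genes tested 1996 were higher labelled no nitrate (15.3%) and 1485 lower (11.4%); without replicate 3 labelled no nitrate the lower genes numbered 937. Both comparisons share the libraries labelled no nitrate, so values are given side by side only. Of the 7 phosphate importer genes of the PTB family tested, 6 were higher labelled no nitrate and 1 was lower. MpPTB8 had 23.9, 16.8 and 19.26 CPM labelled no phosphate (log2 3.33, SE 0.26, adjusted p = 2.78e-06), and MpPTB1, MpPTB4 and MpPTB5 were at 0 in every library labelled no phosphate. Among defence genes, some were higher labelled no nitrate, with MpPR1o at 0.258, 1.53 and 0.691 CPM labelled no phosphate (log2 7.38, SE 0.62, adjusted p = 5.11e-06), MpPR4 at 0, 0 and 0.0494 CPM and MpCupin85 at 0.0516, 0 and 0.0988 CPM. All 5 PR15 genes and 21 of 38 dirigent genes tested were higher labelled no nitrate, and 0 of either list were lower. Other defence lists went both ways: 5 NBS-LRR receptors were higher and 6 lower of 20 tested, 7 beta-1,3-glucanase genes higher and 7 lower of 22, 3 WAK and LysM receptor kinases higher and 3 lower of 18, and 3 lectin receptor kinases higher and 2 lower of 16.

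Lower labelled no nitrate were MpUGT36, a glycosyltransferase gene, with 7.25, 5.21 and 3.31 CPM labelled no nitrate, against 76.0, 95.7 and 52.3 CPM labelled no phosphate (log2 -3.84, SE 0.31, adjusted p = 3.31e-06), and the ammonium transporters MpAMT1.4 (log2 -3.01, SE 0.48, adjusted p = 0.000597) and MpAMT1.3, the second at 0.0541, 0.146 and 0 CPM labelled no nitrate and 1.19, 3.38 and 1.04 CPM labelled no phosphate (log2 -4.67, SE 1.06, adjusted p = 0.0047). The pump gene MpHA17 had 0.649, 0.633 and 0.814 CPM against 5.83, 4.16 and 6.42 CPM (log2 -2.96, SE 0.46, adjusted p = 0.000161), and the peroxidase gene MpPOD4 was lower, with 1.14, 0.779 and 0.356 CPM against 4.02, 3.61 and 4.20 CPM (log2 -2.38, SE 0.34). MpNLA was lower too, at 7.84, 13.1 and 14.3 CPM labelled no phosphate (log2 -2.21, SE 0.26, adjusted p = 9.53e-06). Of the 8 AMT genes tested 4 were lower and 0 higher labelled no nitrate. MpRBCS was higher labelled no nitrate, at 163, 129 and 166 CPM labelled no phosphate (log2 1.10, SE 0.0944, adjusted p = 4.05e-07).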

How the data were processed

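The deposited table held raw read counts per gene, whole numbers per the file headers and values, for 19355 Marchantia genes in 18 libraries. The submitters' processing notes name STAR 2.7 and DESeq2 without their roles; the annotation, strand setting and treatment of shared reads are not given in the sources used here. The libraries were poly(A)-selected and directional, per the labels' protocols.

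Counts were fitted in R 4.3.3 with edgeR 4.0.16 (TMM scaling, filterByExpr, robust quasi-likelihood fit) and limma 3.58.1 over all 18 libraries in 6 groups, with contrasts between groups and Benjamini-Hochberg adjustment over the 13016 genes that passed the filter. A gene was called at an adjusted p under 0.05. CPM are the deposited counts scaled to a TMM-scaled library of 1e+06 counts; errors on log2 fold changes are standard errors. Scripts were tested on simulated data. A gene at 0 in a whole group is given as a bound against 3 counts over that group, and a gene with 1 to 3 counts there as a ratio with a 95% exact Clopper-Pearson interval, both for counting error only. Gene names come from RefSeq's table for MpTak2_v7.1, matched on locus numbers taken to be shared between annotations (17384 of 18391 entries matched). Depth ran from 18872077 to 25544702 counts in the 6 libraries.

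Genes named were drawn from the WRKY genes, the 12 largest rises and 10 largest falls of at least 1 CPM on average and without overlap, the 4 members of each of 61 lists with the smallest adjusted p, every member of a list of at most 8, and the 6 highest and 6 lowest genes called in each further contrast; not every gene of this selection is printed. The members and lists were chosen with earlier results of these data known. Alternatives were DESeq2 1.42.0 size factors, its Wald test, upper-quartile factors, no filter on low counts, only the groups compared, a replicate block, each library left out and, chosen after seeing the data, both outlying libraries left out. No sequence is printed, as no sequence table was used here.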

Additional observations from a re-analysis of the deposited data

Results flagged for a closer look

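For 33 of the genes followed by name the response to the medium labelled no nitrate differed between wrky10 and Tak-1 by the interaction term of the edgeR fit (adjusted p under 0.05, wrky10 minus Tak-1 on the log2 scale); 2.13% of all genes tested passed this test. For the following 18 the call held without any 1 of the 12 libraries. The response was higher in the mutant for MpERF15 (2.88), MpOMT15 (2.65), MpNBS-LRR20 (1.47), MpR2R3-MYB5 (0.90), MpBHLH10 (0.73), MpGH17.20 (0.71) and MpWRKY1 (0.63). MpCupin105 was also called (7.65), but it was at 0 in the mutant in full medium, so this value depends on the prior count and is no size of effect. The response was lower in the mutant for MpPPO55 (-1.79), MpIAMT1 (-1.52), MpGARP6 (-1.51), MpERF11 (-1.16), MpUGT7 (-1.10), MpSAUR3 (-1.01), MpABA1 (-0.69), MpERF18 (-0.66), MpHCT (-0.60) and MpSPX (-0.56). Over all 19 alternative settings, MpERF18 and MpR2R3-MYB5 were called in 17, and MpERF11, MpHCT and MpGH17.20 in 18.

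For the other 15 the call was lost without at least 1 library. Higher in response in the mutant were MpWRKY7 (3.51), MpPR6a (2.53), MpPR6b (2.4), MpGH17.25 (1.81), the small auxin-up RNA gene MpSAUR9 (1.53), MpPIN4 (1.49), the glutathione transferase MpGST23 (1.47) and MpExpansin14 (1.02). Smaller differences in the same direction were those of the glycosyltransferase MpUGT24 (0.77), the peroxidase MpPOD143 (0.72), MpWRKY10 (0.67), the receptor gene MpNBS-LRR12 (0.64) and MpWRKY11 (0.29). MpGDPD (-1.28) and MpCE8.3 (-0.57) were lower in response in the mutant. The libraries behind MpWRKY7, MpPR6a, MpPR6b, MpGH17.25, MpWRKY10 and MpGDPD are given above. MpExpansin14 was lost without wrky10 replicate 2 labelled no nitrate or Tak-1 replicate 1 or 2 in full medium (adjusted p = 0.0525, 0.0572 and 0.0534). MpNBS-LRR12 was lost without Tak-1 replicate 1 or 3 labelled no nitrate or Tak-1 replicate 1 or 2 in full medium (adjusted p = 0.0532, 0.0554, 0.0556 and 0.0507). The remaining 7 calls were lost without any 1 library other than those named next. They were kept for MpSAUR9 without replicate 3 labelled no nitrate of either genotype, and MpPIN4 and MpWRKY11 without replicate 3 of wrky10 in either medium or of Tak-1 in full medium. MpGST23 was kept without wrky10 replicate 1 or 3 or Tak-1 replicate 3, all labelled no nitrate. MpUGT24 was kept without wrky10 replicate 1 or 3 or Tak-1 replicate 2 or 3 labelled no nitrate, or wrky10 replicate 1 or 2 in full medium. MpPOD143 was kept without wrky10 replicate 1 or 2 or Tak-1 replicate 3 labelled no nitrate, or wrky10 replicate 3 or Tak-1 replicate 1 or 2 in full medium. MpCE8.3 was kept without wrky10 replicate 1 or 3 or Tak-1 replicate 3 labelled no nitrate, or wrky10 replicate 2 or Tak-1 replicate 3 in full medium.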

How the results depend on the processing

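No called fold change of a named gene changed sign in any alternative, while the sign of some genes never called did. Of 2294 pairs of a named gene and a setting, 58 lost the call, 19 gained it and 2217 did neither. The 5128 genes called between labelled no nitrate and full medium in wrky10 ranged from 3695 to 5266 over the settings, and from 4148 to 4802 with 1 library left out (higher 2539 to 2822, lower 1609 to 1980). Their share of higher genes was 59.0%, or 52.8% with DESeq2 size factors. With only the groups compared, 3987 genes were called (2203 higher, 1784 lower), and 3904 of the 5128 kept their call.

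The 277 differences from Tak-1 moved most, and the cause was not tested: 567 by the DESeq2 Wald test (212 higher, 355 lower), 159 with only the groups compared (54 higher) and 124 without both outlying libraries (57 higher, 67 lower). With 1 library left out they ranged from 132 to 331 (higher 53 to 152, lower 79 to 179). Of the 3481 genes called between labelled no nitrate and labelled no phosphate, 2262 were called with only the groups compared (1266 higher), and 2399 to 3106 with 1 library left out (lower 937 to 1318); single genes of that comparison were not followed over the settings.

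Same-numbered wrky10 libraries labelled no nitrate and in full medium deviated from their group means with correlations of -0.07, 0.09 and 0.14. Replicates 2 and 3 labelled no nitrate correlated best with their own number. Replicate 1 correlated best with replicate 2 in full medium (0.15). Other groups were not checked, and the numbers were not taken to pair the samples. With the replicate block 5248 genes were called between labelled no nitrate and full medium, 416 in the difference from Tak-1 (233 lower) and 3693 between labelled no nitrate and labelled no phosphate. At these depths genes under about 1 CPM rest on few counts in each library. With 3 libraries a group, 1 library could decide calls for genes with small changes, as given beside them. The labels do not say whether replicates were separate cultures.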

Other observations

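Other lists are given beside the 39.4% called of all genes tested. The share was 27.8% for late embryogenesis abundant and dehydrin genes, 44.8% for ABCG transporters and 47.1% for cytochrome P450 genes. It was 51.4% for bHLH, 71.4% for NAC and 25% for R2R3-MYB genes, and 25% for zinc transporter and ferric reductase genes. Median log2 fold changes of these lists lay between -0.06 (NAC) and 0.25. Of 36 late embryogenesis abundant and dehydrin genes tested, which protect cells in drying plants, 9 rose and 1 fell in wrky10 labelled no nitrate over full medium, with a median log2 of 0.25. Of 29 ABCG transporter genes 10 rose and 3 fell, and 8 of the 10 were highest in replicate 2. Among transcription factor families, 11 of 35 bHLH genes rose and 7 fell (7 rises without replicate 1 labelled no nitrate or replicate 3 in full medium, 4 falls without replicate 3 labelled no nitrate), 2 of 7 NAC genes rose and 3 fell, and 3 of 12 R2R3-MYB genes rose and none fell. Cytochrome P450 genes, with many roles in phenolic, terpene and hormone synthesis, split into 28 rises and 12 falls among 85 tested. Of 8 zinc transporter and ferric reductase genes tested 1 rose and 1 fell (2 rose without replicate 3 labelled no nitrate, 2 fell without replicate 2 in full medium). Neither of the 2 amino acid transporter genes tested was called.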
